A study of Drosophila melanogaster with 20 samples.

Results

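The m6A landscape of adult yw males is described here from every peak that was called when the antibody-precipitated RNA (IP) of these flies was set against their untreated fragmented RNA (input). The list holds 20153 peaks in 10379 genes, of 98715 peaks in the 5 lists of the series, and its members are all peaks of that list with no further selection. Besides yw males the series held yw females and 3 groups of mutant males, HakaiSH4, Mettl14SK1 and Mettl3SK2/Df, and every group had 2 IP and 2 input libraries. Flies of all groups were adults of 1 to 2 days kept at 25 °C, and poly(A) RNA of whole flies was used. The values used here are those of the yw male group, with no mutation of a writer gene, set beside the yw female group and, for single peaks, the mutant lists where stated. The RNA of all tissues was mixed, so a peak cannot be placed in a cell type. The labels do not say that the libraries of a group came from separate collections of flies, so the spread between them may be technical.

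N6-methyladenosine (m6A) is the most common internal modification of messenger RNA. It is written by a nuclear complex in which Mettl3 is the catalytic subunit and Mettl14 binds the RNA, together with the auxiliary proteins fl(2)d, vir, nito, xio (Flacc) and Hakai. In flies the mark is read by the nuclear protein Ythdc1 and the cytoplasmic protein Ythdf, and it acts on neuronal function and on the splicing of Sxl, the switch gene of sex determination. In the IP, fragments that bind an m6A antibody are sequenced, and a peak is a stretch of exons in which IP reads exceed input reads.

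Each peak was listed with a fold enrichment of IP over input on a linear scale and a p-value, from the 2 IP and 2 input libraries together. The peaks therefore have no replicate check and no read count, and the depth behind them is unknown. The level of a gene is its FPKM (fragments per kilobase of transcript, scaled to the library) in the 2 yw male input libraries, and a gene was called expressed at a mean of at least 1 FPKM. Of 17276 genes in the expression table, 12874 were expressed. The libraries had a Pearson r of 0.977 across those genes on the log2(FPKM + 1) scale, and 283 genes (2.20%) differed more than 2-fold between them. The list's genes matched the table for 10363 of 10379 genes, and the other 16 genes, with 21 peaks, have no level.

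The libraries were male by their markers. The 8 markers of the male reproductive tract lay between 110 FPKM (Acp63F, library 1) and 2939 FPKM (Acp95EF, library 1), and the 5 spermatid markers between 23.7 (fzo) and 434 FPKM (Mst87F). The eggshell markers Cp15, Cp36, Vm26Aa and Vm34Ca stayed at or below 0.552 FPKM, Cp16 was listed at 0 in both libraries, and the yolk proteins Yp1, Yp2 and Yp3 lay between 1.33 and 3.66 FPKM. Eye, neuron, flight muscle, gut and fat body markers were all above 3 FPKM. The 2 male libraries differed in heat shock genes, which were higher in library 2 for 23 of 23 genes, with a median log2 ratio of 1.21 against -0.03 over all expressed genes. Hsp26 was at 568 and 1668 FPKM, and Hsp22 at 52.2 and 207 FPKM. Whether this touches the peaks of these genes was not tested.

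Most expressed genes held a peak. A peak was listed for 9197 of the 12874 expressed genes, or 71.4% (Wilson 95% interval 70.7% to 72.2%), and for 1166 of the 4402 genes below 1 FPKM (26.5%, interval 25.2% to 27.8%). Wilson intervals here cover counting error only. The genes with a peak made up 65.1% and 62.8% of the summed FPKM of the 2 male libraries, and 71.1% and 70.2% without the genes of the mitochondrial genome. Expressed genes with a peak had a median of 11.3 FPKM (quartiles 4.76 and 28.3), and those without one a median of 7.38 FPKM (quartiles 2.91 and 20.9). The overlap of these ranges was wide, so level alone did not separate the genes with a peak from those without.

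The share of genes with a peak was low at low levels, flat in the middle and lower again at the top. It was 5.76% of 521 genes listed at 0 in both libraries, 12.2% between 0 and 0.1 FPKM and 37.5% between 0.1 and 1 FPKM. It was then 58.9% from 1 to 3 FPKM, 70.8% from 3 to 10, 76.8% from 10 to 30, 77.1% from 30 to 100 and 76.6% from 100 to 300 FPKM. Above this range it was 66.4% of 253 genes between 300 and 1000 FPKM (interval 60.4% to 71.9%) and 58.1% of 62 genes above 1000 FPKM (45.7% to 69.5%). A 5′ UTR peak was held by 28.2% of genes at 10 to 30 FPKM, by 12.6% at 300 to 1000 FPKM and by 17.7% above 1000 FPKM (interval 10.2% to 29.0%). Across expressed genes the Spearman rho of level and number of peaks was 0.07 (n = 12874), and it was below 0 when only genes of at least 5 FPKM or only peaks of at least 5-fold enrichment were kept (-0.045 and -0.021). These rho values are across genes, which are not independent replicates.

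**Figure D1:**
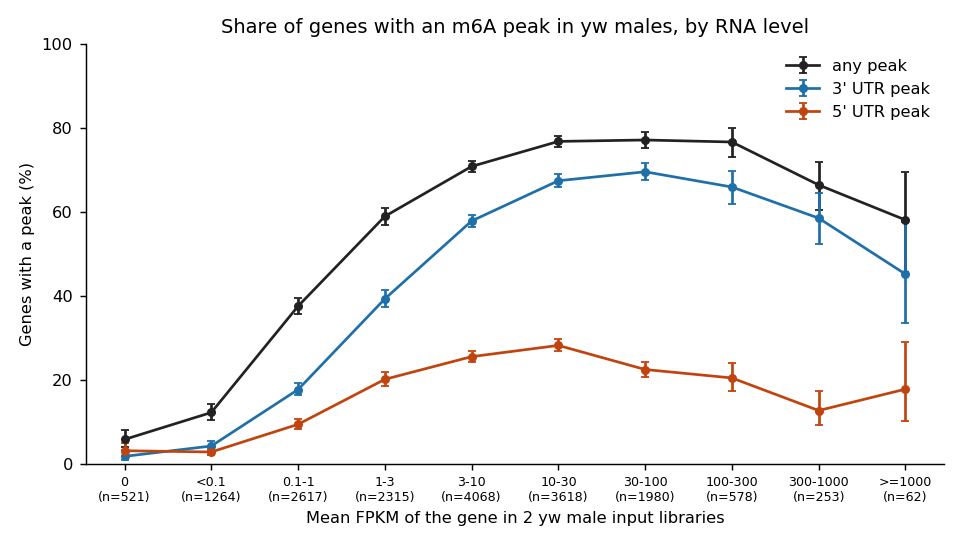
Share of genes that hold a yw male peak (y axis, percent) in 10 classes of mean FPKM in the 2 yw male input libraries (x axis), for any peak, a 3′ UTR peak and a 5′ UTR peak. Error bars are Wilson 95% intervals, and the share with any peak is highest at 77.1% between 30 and 100 FPKM.

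Gene span, the genomic distance from the start to the end of a gene with its introns, went with the number of peaks among expressed genes. Over genes of at least 1 FPKM the Spearman rho of span and number of peaks was 0.50, against 0.07 for level. That of level was 0.31 when all genes above 0 FPKM were kept. With span, rho was 0.52 when peaks of a gene that share exonic bases were joined. Expressed genes were split into 5 span classes of equal size, from class 1 (55 to 965 bases) to class 5 (from 6499 bases). From class 1 to class 5, a peak was listed for 54.8%, 63.2%, 68.4%, 78.5% and 92.3% of genes. A 5′ UTR peak was listed for 9.01%, 7.69% and 11.3% of the 3 classes of shorter genes, 26.5% of class 4 and 66.9% of class 5. For 3′ UTR peaks the 5 shares were 36.1%, 53.6%, 60.9%, 66.3% and 79.5%.

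Within span class 5, the share with a 5′ UTR peak was between 67.4% and 69.8% in each class from 1 to 30 FPKM, 58.3% at 30 to 100 FPKM and 41.2% of 17 genes at 300 FPKM and more. In span class 1, it lay between 3.86% and 22.0% in every class of level. Span class 5 was therefore above span class 1 at each level. The fall at high levels was not found in every span class. At 300 FPKM and more the 5′ UTR share was above that at 10 to 30 FPKM in classes 1 and 3. It was 14.1% against 10.6% and 22.0% against 11.1%. In classes 2, 4 and 5 it was below, at 3% against 8.55%, 15% against 30.7% and 41.2% against 69.8%. With peaks of at least 5-fold enrichment alone, the shares in classes 5 and 1 were 43.1% and 3.11%. With peaks that lie in the span of 1 gene only, they were 59.4% and 4.58%. Span is a property of the gene model, and its relation to transcript length or UTR length was not analysed here.

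**Figure D2:**
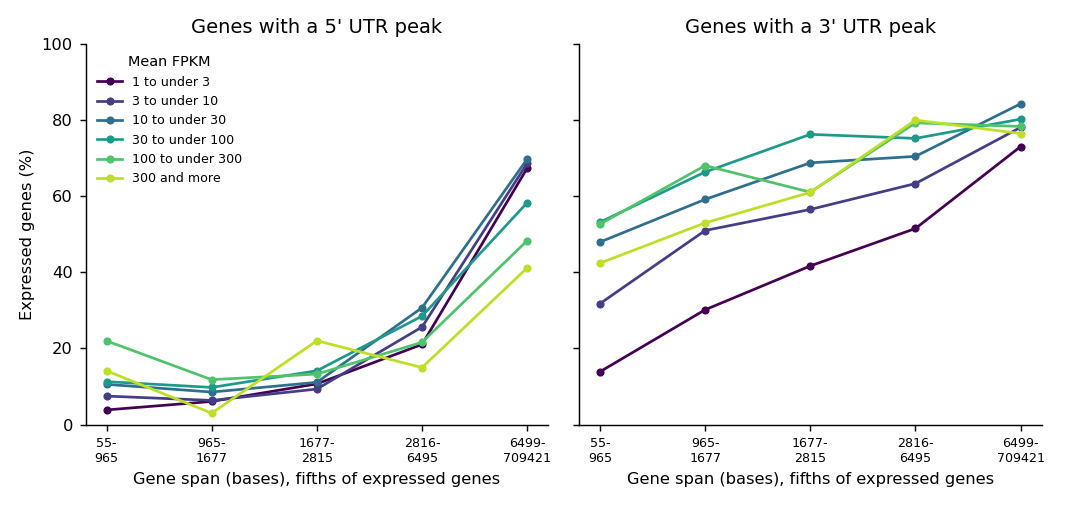
Share of expressed genes with a 5′ UTR peak (left) and a 3′ UTR peak (right) in yw males, in percent, by 5 classes of gene span in bases (x axis) and class of mean FPKM (lines). The 5′ UTR share stays at or below 30.7% up to span class 4 and reaches between 41.2% and 69.8% in class 5, and over all levels the 3′ UTR share goes from 36.1% to 79.5%.

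Peaks lay at both ends of genes. Counted by the midpoint of the peak along the gene's span, with the span cut into 10 equal parts, 39.1% of the peaks lay in the last part and 13.04% in the part before it, against 10.7% in the initial part and between 4.33% and 7.43% in each of the other 7. Of the peaks in the initial part 1858 of 2159 were annotated to the 5′ UTR, and of those in the last part 7249 of 7864 to the 3′ UTR. The median midpoint of a 5′ UTR peak lay at 0.16 of the span and that of a 3′ UTR peak at 0.94. The annotated segments thus follow the ends of the gene models, and 68.7% of 5′ UTR peaks reached a transcription start site.

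The segments differed in the shape and strength of their peaks. A 5′ UTR peak covered a median of 469 exonic bases (quartiles 240 and 751), against 237 bases for a 3′ UTR peak (177 and 329) and 180 for a peak in other exonic sequence (119 and 301). More than 1 exon block was found in 55.1% of 5′ UTR peaks, in 11.9% of 3′ UTR peaks and in 17.8% of the others. The median fold enrichment was 4.44 in the 5′ UTR (quartiles 2.48 and 7.70), 3.11 in the 3′ UTR (2.22 and 4.51) and 2.16 elsewhere (1.59 and 3.39). The quartile ranges of the segments overlapped. A fold enrichment of at least 5 was reached by 44.5% of 5′ UTR peaks, 19.7% of 3′ UTR peaks and 15.1% of the others.

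**Figure D3:**
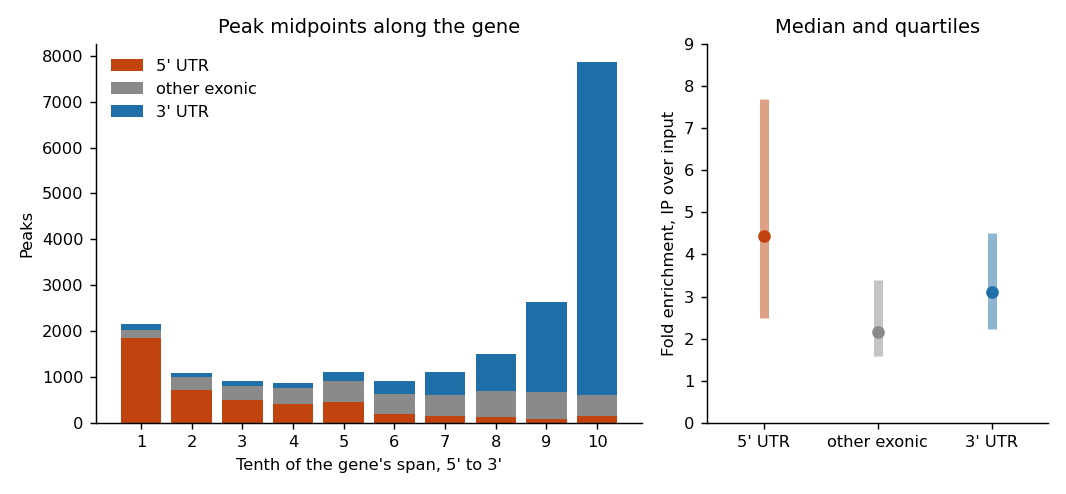
Left, number of yw male peaks (y axis) whose midpoint falls in each of 10 equal parts of the gene's span from 5′ to 3′ (x axis), stacked by annotated segment, with 7864 peaks in the last part and 2159 in the initial one. Right, median fold enrichment (points) and quartiles (bars) by segment, highest in the 5′ UTR at 4.44.

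Of the expressed genes, 4727 (36.7%) had peaks in the 3′ UTR alone, 1494 (11.6%) in the 5′ and the 3′ UTR, and 777 (6.04%) in both UTRs and other exonic sequence. Peaks in the 5′ UTR alone were found in 723 genes (5.62%). A 3′ UTR peak was listed for 72.6% of genes that also had a 5′ UTR peak and for 55.0% of genes without one. Genes with peaks in all 3 segments had a median span of 18072 bases, against 1892 bases for genes with 3′ UTR peaks alone. Within span class 1 the order was the other way, at 24.6% of 232 genes with a 5′ UTR peak and 37.3% of 2343 genes without. In class 2 it was 50% against 53.9%. In classes 3, 4 and 5 it was 66.7% against 60.1%, 69.7% against 65.1% and 83.9% against 70.7%.

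By chromosome, the share of expressed genes with a peak was 73.4% on X, 72.5% on 2L, 71.4% on 2R, 71.0% on 3R and 70.4% on 3L, with Wilson intervals that overlapped for each neighbouring pair in this order of size. Chromosome 4 had 71.3% of 94 genes (interval 61.4% to 79.4%), below the 83.3% of genes of the same span and level. Its expressed genes had a median span of 8282 bases, against 2566 bases on X and 1977 to 2109 bases on the other arms. Expressed X genes with a peak held a mean of 2.24 peaks, against 1.87 to 1.99 on the arms of chromosomes 2 and 3. The 5′ UTR share of the peaks was between 21.7% and 23.7% on the 5 large arms. On chromosome 4 it was 30.5% of 128 peaks (interval 23.2% to 38.9%).

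The Y chromosome stood apart in its lack of 5′ UTR peaks, and the mitochondrial genome in its share of genes with a peak. The 21 peaks of the Y chromosome lay in 16 genes and none was in a 5′ UTR (Wilson interval up to 15.5%). They include ORY with 4 peaks, CCY and the dynein heavy chain gene kl-3 with 2 each, and kl-5, kl-2, WDY, FDY, ARY and Pp1-Y2 with 1 each, at fold enrichments of up to 4.82 (Pp1-Y2, 8.49 and 6.36 FPKM). Of the 24 expressed genes of the Y chromosome 12 held a peak (50%, interval 31.4% to 68.6%), against 66.8% of genes of the same span and level. The interval holds the share of these classes. Of a list of Y genes, which are transcribed in the male germ line, 9 of 10 expressed members held a peak, against 83.2%. The mitochondrial genome had a single peak, on mt:tRNA:Ile-GAT from base 1 to base 65 with a fold enrichment of 9.14. Its 25 expressed genes include the most abundant RNAs of the libraries, such as mt:CoIII with 19553 and 22812 FPKM and mt:CoI with 11957 and 13033 FPKM, subunits of cytochrome c oxidase. Of these 25 genes 1 held a peak (4%, interval 0.710% to 19.5%), against 55.4% of genes of the same span and level. Mitochondrial RNA is made inside the organelle, and whether this bears on the share was not tested.

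By biotype of the matched RefSeq symbols, 74.5% of 10809 expressed protein-coding genes held a peak. The share was 54.4% of 691 long noncoding RNAs and 25.3% of 265 antisense RNAs (interval 20.4% to 30.8%). Among all expressed genes of the same classes of span and level it was 73.4%, 50.8% and 54.0% for the 3 biotypes, so that the antisense RNAs lay below their classes and the long noncoding RNAs did not. At 1 FPKM or more, a peak was listed for 6 of 52 snoRNA genes and 0 of 17 miRNA genes. The Wilson interval of the miRNA share went up to 18.4%. Among expressed genes of the same span and level, the share was 41.5% for snoRNA and 40.8% for miRNA genes. With genes of any level counted, the list held 26 peaks in 25 snoRNA genes and 27 peaks in 24 miRNA genes. The noncoding RNAs of dosage compensation, which coat the male X, both had peaks. Of these, lncRNA:roX1 (52.02 and 46.2 FPKM) had 3 peaks in 2 regions of up to 2.83-fold and lncRNA:roX2 (10.1 and 9.96 FPKM) had 1 peak of 7.04-fold.

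Genes differed in how many peaks they held. Of the 10379 genes, 5693 had 1 peak, 4686 (45.1%) had 2 or more and 61 (0.588%) had 10 or more. The deposited list repeats signal, since 403 peaks share their coordinates with another peak of the list, whichever gene it is assigned to. Within genes, 1374 hold peaks with shared exonic bases. Joining the peaks of a gene that share exonic bases left 18423 regions, and 3843 genes (37.0%) then had 2 or more. The repeats weigh most on genes with many overlapping models. The gene mod(mdg4), a chromatin insulator gene with trans-spliced transcripts, led with 50 peaks but had 12 regions. The nuclear receptor gene Hr3 had 20 peaks and 10 regions, and the guanine nucleotide exchange factor gene sif had 20 peaks and 13 regions.

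By regions the muscle gene sls, which encodes the giant sarcomere protein Sallimus (fly titin), was highest with 30. It was at 24.5 and 23.3 FPKM, 27 of its peaks were annotated to other exonic sequence, and their fold enrichments lay between 1.42 and 11.8. The prospero gene pros, a homeodomain factor of neural differentiation, followed with 21 regions at 6.36 and 0.764 FPKM, and the muscle kinase gene Strn-Mlck with 18 at 51.7 and 58.7 FPKM. Msp300 (a nuclear and muscle anchor protein) and dnc (the cAMP phosphodiesterase of learning) had 17 each, and mamo, lola and CAP 15 each. All 11 of these genes span at least 26556 bases. Peaks could also be many where the gene had next to no RNA of its own. CG15465 had 17 peaks in 10 regions at 0 and 0.126 FPKM, and for 14 of these peaks the most abundant other gene at the site was rg.

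The gene named for a peak was not always the only candidate. The blocks of 5793 peaks (28.8%) also lie in the span of another gene, for 4359 of them a gene on the other strand. The libraries were strand-specific, but whether strand was used in the peak calls is not given in the sources used here. Of the 1868 peaks assigned to genes below 1 FPKM, 601 (32.2%) lie in an expressed gene as well, against 23.9% of the peaks of expressed genes. The median fold enrichment was 4.38 for peaks of genes below 1 FPKM and 2.97 for those of expressed genes. With peaks in the span of 1 gene alone, 57.2% of expressed genes held a peak.

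Fold enrichment reached extreme values in a small set of genes. The median over the list was 3.06, 123 peaks (0.610%) reached 20 and the maximum was 315. Among peaks with a log10 FDR of at most -20 in expressed genes, the maximum lay in CG45490 on chromosome X from 19933541 to 19934264 in the coordinates of Release 6, a 5′ UTR peak of 3 blocks. This gene was at 2.77 and 3.44 FPKM, and the peak had no partner in the yw female list and a fold enrichment of 7.70, 18.5 and 5.38 in the Mettl3, Mettl14 and Hakai male lists. Other genes with high values were CG11458 (139-fold), Fib (131-fold), Cpr47Ef (84.1-fold) and CG4038 (83.2-fold). Fib encodes fibrillarin, the methyltransferase of rRNA. Cpr47Ef belongs to the structural cuticle proteins.

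Most of these peaks were also listed at high values in the mutant males. The CG11458 peak, on 3L from 20905795 to 20906331 at 159 and 179 FPKM, was 139-fold in yw males and was listed at 226-fold in Mettl3, 147-fold in Mettl14 and 326-fold in Hakai males. In the same order of mutants the Fib peak was listed at 258-fold, 77.0-fold and 178-fold, so its Mettl14 value was below that of yw males. In yw females, the partners of the CG11458 and Fib peaks were listed at 116-fold and 105-fold. By contrast, the futsch peak, in the gene of a microtubule-associated protein of neurons, was 42.6-fold in yw males and 12.7-fold, 42.1-fold and 8.40-fold in Mettl3, Mettl14 and Hakai males. The values have no error within a list, so none of these differences was tested. 

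The peaks of lowest p-value were mostly in abundant RNAs. The lowest belonged to up, the gene of troponin T, at 1649 and 2051 FPKM. It was a 5′ UTR peak of 10 blocks on X from 13593474 to 13599461, with a fold enrichment of 14.8. Peaks of Mlc2 (myosin regulatory light chain, 2.14-fold), sesB (the ADP/ATP carrier, 3.27-fold), ninaE (the major rhodopsin, 7.98-fold) and DnaJ-1 (a co-chaperone, 5.32-fold) were also among the 10 lowest. So were peaks of 36-fold and 40.5-fold in CG14742, which was only at 15.3 and 29.7 FPKM, at sites that also lie in Cog1. The DnaJ-1 5′ UTR peak had a partner of 1.5-fold in Mettl3 males and none in Mettl14 or Hakai males. Over peaks of expressed genes the Spearman rho of level was -0.46 with log10 p and -0.07 with fold enrichment (n = 18264). Low p-values thus went with abundance more closely than fold enrichment did.

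Among the most abundant nuclear RNAs, the genes with and without a peak included members of the same families. The muscle actins Act88F (4041 and 5124 FPKM), Act79B (2163 and 3065 FPKM) and Act57B (1495 and 1379 FPKM) had no peak, nor did the flight muscle gene fln (1065 and 2069 FPKM). The myosin light chain genes Mlc2 (5909 and 6158 FPKM) and Mlc1 (4210 and 3387 FPKM) had 3′ UTR peaks of up to 2.14-fold (Mlc2) and 6.71-fold (Mlc1). Other abundant genes without a peak were the neuropeptide-like precursors Nplp3 (6525 and 8110 FPKM) and Nplp2 (3399 and 2217 FPKM), cytochrome c (Cyt-c-p, 2579 and 2719 FPKM), RpL41 (2986 and 2212 FPKM) and the seminal fluid genes Sfp87B (2361 and 1267 FPKM) and Sfp60F (1108 and 1410 FPKM). Actin genes are near-identical in their coding parts, so reads may be split among them. Of the 10 genes of highest level with a peak, up alone had its peaks in the 5′ UTR, and the other 9 had theirs in the 3′ UTR.

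Gene groups were then described by the share of their expressed members with a peak, beside the 71.4% of all expressed genes with any peak and 24.3% with a 5′ UTR peak. Since span and level went with the share, the share of all expressed genes in the same classes of span and level is given after each group's own share. No test was made across these groups.

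Regulators of development nearly all held a peak. All 28 expressed homeobox and segment identity genes had a peak (interval 87.9% to 100%), against 88.8% of genes of the same span and level. A 5′ UTR peak was listed for 26 of them (92.9%, interval 77.4% to 98.0%, against 61.3%). Among them ct, a selector gene of sensory organs, had 12 regions at 4.77 and 4.44 FPKM. The gene so, a factor of eye formation, had a peak of 29.2-fold at 5.53 and 4.07 FPKM, a site that also lies in lncRNA:CR44203. Hox gene Scr had 6 regions with up to 14.0-fold enrichment. Of the 19 expressed nuclear receptor and ecdysone target genes, 18 had a peak (94.7%, interval 75.4% to 99.1%, against 88.3%). A 5′ UTR peak was listed for 15 of them (78.9%, interval 56.7% to 91.5%, against 57.7%). Both intervals of this list hold the share of its classes. The ecdysone receptor EcR had 5 regions of up to 15.1-fold and Eip75B 11 of up to 20.1-fold, whereas usp, the partner of EcR (11.3 and 9.74 FPKM), had none.

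Among neuronal genes, the ion channel list lay above its classes in 5′ UTR peaks and the synaptic list was level with its classes for any peak. Of 44 expressed ion channels and receptors, 42 (95.5%) had a peak and 34 (77.3%) had one in the 5′ UTR, against 89.3% and 61.3% of genes of the same span and level. The potassium channel Sh had 13 regions at 13.5 and 7.82 FPKM, and the calcium-activated channel slo had 6 with up to 30.8-fold enrichment. The acetylcholine receptor subunit nAChRbeta3 (4.64 and 7.49 FPKM) and the glutamate receptor gene Nmdar2 (1.12 and 2.24 FPKM) were without a peak. In the active zone and synaptic vesicle list 25 of 28 genes (89.3%) had a peak, against 89.4% of genes of the same span and level, and 19 (67.9%, interval 49.3% to 82.1%) had one in the 5′ UTR, against 54.2%. The neuronal marker elav (6.89 and 5.72 FPKM), an RNA-binding protein, was with orb2 and AGO2 one of the 3 RNA-binding regulators without a peak among 33 (90.9% with a peak, against 91.4%).

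Signalling and clock genes are long, and their classes of span and level are themselves high in 5′ UTR peaks. A 5′ UTR peak was listed for 18 of 26 insulin and TOR genes (69.2%, interval 50.01% to 83.5%, against 45.7%) and 15 of 24 EGFR, Ras and MAP kinase genes (62.5%, interval 42.7% to 78.8%, against 47.9%). It was listed for 12 of 19 Notch pathway genes (63.2%, interval 41.0% to 80.9%, against 48.4%) and 11 of 15 clock genes (73.3%, interval 48.0% to 89.1%, against 54.5%). The interval of the insulin list alone lay above its classes. For any peak the shares were 96.2% of insulin (against 85.3%), 87.5% of EGFR (85.5%), 84.2% of Notch (83.1%) and 80.0% of clock genes (87.8%). Among insulin pathway genes foxo, the transcription factor at its end, had a peak of 14.3-fold, and only raptor of the 26 expressed members was without a peak. The kinase gene sgg, on the insulin and clock lists, had 8 regions of up to 12.9-fold. In the clock, tim (43.8 and 30.8 FPKM) and Pdp1 (19.7 and 23.0 FPKM) had 3 and 8 regions, and the photoreceptor gene cry (21.6 and 29.7 FPKM) had none. The EGFR target kek1 reached 24.8-fold and the EGFR gene itself 8.27-fold.

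Core metabolic and translation lists differed among themselves, and their peaks were mostly in the 3′ UTR. Of 92 expressed cytosolic ribosomal protein genes, at a median of 385 FPKM, 44 (47.8%, interval 37.9% to 57.9%) had a peak, against 63.5% of genes of the same span and level. A 5′ UTR peak was listed for 2 of them, RpS27A and RpL7-like. With peaks of at least 5-fold enrichment the share was 1.09%, which is RpL7-like (16.6-fold) alone. Mitochondrial ribosomal protein genes had peaks in 40 of 73 genes (54.8%, interval 43.4% to 65.7%, against 64.5%) and oxidative phosphorylation genes in 47 of 74 (63.5%, interval 52.1% to 73.6%, against 68.6%), with 5′ UTR peaks in 3 and 4. Both intervals hold the share of their classes. Of 36 translation factor genes 27 had a peak (75%, against 80.2%). Of 27 glycolysis and citric acid cycle genes 16 had a peak (59.3%, interval 40.7% to 75.5%, against 79.0%). Among them Gapdh1 (999 and 1387 FPKM) had a peak of 1.71-fold, while Mdh2 (504 and 692 FPKM) and Acon (533 and 606 FPKM) had none.

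Proteasome and heat shock genes lay above their classes. Of 47 proteasome genes 42 (89.4%) had a peak, against 71.9% of genes of the same span and level, and 41 of them had one in the 3′ UTR. Of 23 heat shock genes 22 had a peak (95.7%, against 73.5%) and 13 had one in the 5′ UTR (56.5%, against 20.1%). Their fold enrichments went up to 7.98 (Hsp27), and Hsp67Ba (6.28 and 12.4 FPKM) was the gene without a peak. The copies of Hsp70 are nearly identical in sequence, so their reads and peaks cannot be assigned to one copy with certainty. The sarcomere list had a peak in 23 of 29 genes at a median of 391 FPKM (79.3%, interval 61.6% to 90.2%, against 82.6%), and 21 of these had 3′ UTR peaks.

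**Figure D4:**
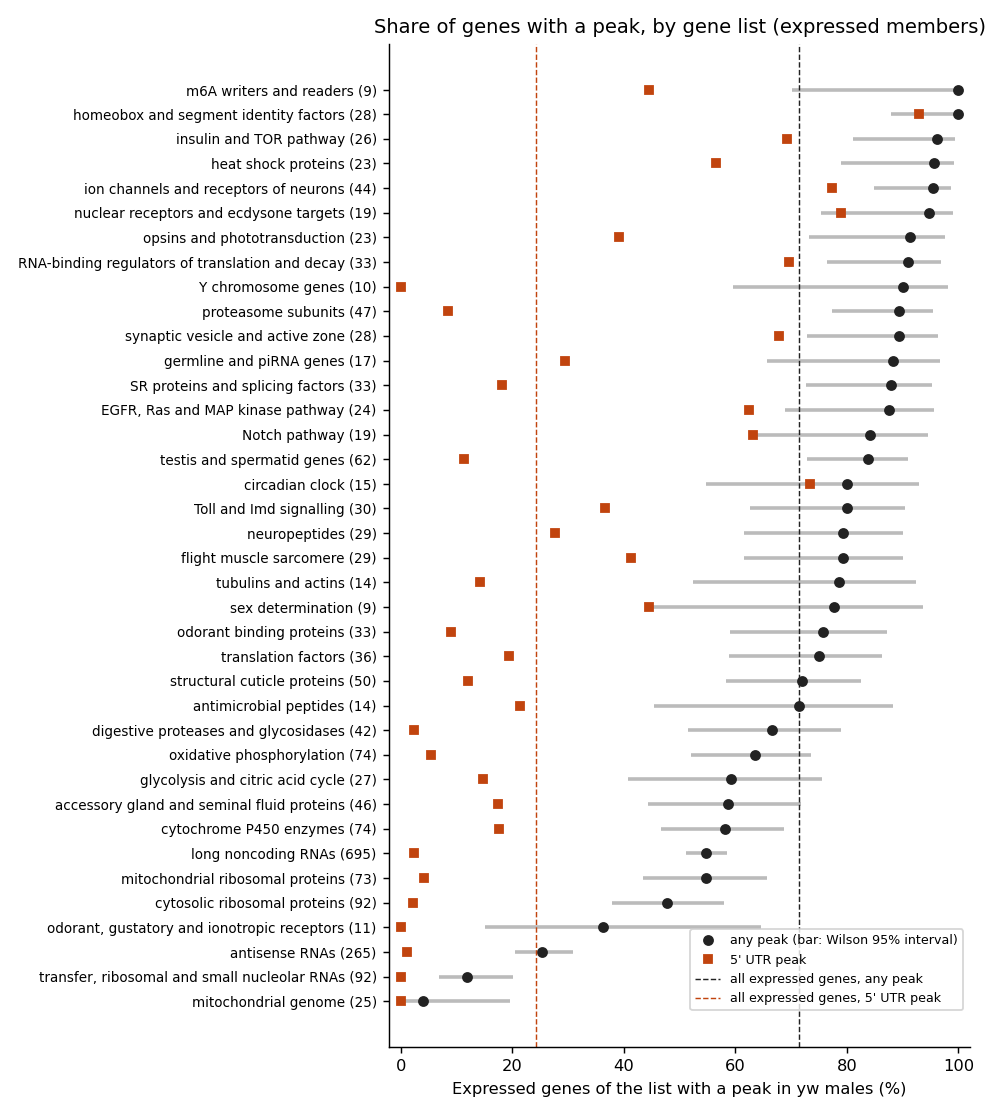
Share of expressed genes that hold a yw male peak (x axis, percent) for each gene list, with the number of expressed members in parentheses. Circles are any peak with Wilson 95% intervals, squares are 5′ UTR peaks, and dashed lines are all expressed genes (71.4% and 24.3%). Homeobox genes lie at 100% and cytosolic ribosomal proteins at 47.8%.

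Of the genes of the male reproductive system, those of the testis lay above their classes and those of the accessory gland had an interval that holds the share of theirs. Of 62 testis and spermatid genes 52 (83.9%, interval 72.8% to 91.0%, against 69.1%) had a peak, 49 of them with one in the 3′ UTR. The highest enrichment was 19.3-fold in bol, the translation regulator of meiosis (48.3 and 53.4 FPKM), and ocn (950 and 941 FPKM) had 1 peak of 8.73-fold. Of 46 accessory gland and seminal fluid genes 27 (58.7%, interval 44.3% to 71.7%, against 64.6%) had a peak, and 32 regions were found in all. Acp62F had 2 peaks of up to 11.9-fold, at sites that also lie in Mrtf, but Acp36DE (381 and 276 FPKM) had none. Levels of these genes varied between the libraries, with Mst57Db at 5149 and 1577 FPKM and Acp98AB at 1044 and 155 FPKM.

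The writers and readers of m6A and the sex determination genes were themselves listed. All 9 expressed writer and reader genes had a peak (interval 70.1% to 100%, against 74.2%), with 24 peaks in all. The highest was a 3′ UTR peak of 11.3-fold in the reader Ythdc1 (17.4 and 13.8 FPKM), followed by fl(2)d at 8.30-fold and xio at 7.54-fold with 6 peaks. The catalytic subunit Mettl3 (5.22 and 5.17 FPKM) had peaks of 6.77-fold and 2.18-fold, and Mettl14 (4.19 and 4.25 FPKM) of up to 3.26-fold. Of 9 sex determination genes 7 had a peak (77.8%, against 74.4%). The male isoforms of fru and dsx direct male behaviour and morphology. Here fru had 13 peaks of up to 26.9-fold at 2.56 and 1.99 FPKM, and dsx had 9 peaks of up to 9.32-fold at 7.24 and 6.38 FPKM. The splicing regulator tra (7.52 and 7.23 FPKM) and the gene ix (6.42 and 4.64 FPKM) had no peak.

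Gene Ontology terms with 30 to 500 expressed genes were described in the same way, over 507 terms. The highest shares were imaginal disc-derived leg morphogenesis (52 of 52 genes, against 87.9% of genes of the same span and level), imaginal disc-derived wing vein specification (54 of 55, against 84.5%) and ovarian follicle cell development (86 of 88, against 85.0%). Axon guidance had a peak in 165 of 171 genes (against 88.3%) and nuclear speck in 30 of 31 (against 75.2%). The lowest shares were cytosolic ribosome (25 of 57 genes, against 64.7%), proton transmembrane transporter activity (14 of 30, against 67.4%) and cytosolic small ribosomal subunit (22 of 47, against 65.3%). Among the next was NADH dehydrogenase (ubiquinone) activity (15 of 30, against 68.1%). The median over terms was 83.4%. A peak was held by 74.4% of the 10811 expressed genes with a term and by 55.8% of the 2063 without one, against 73.8% and 59.0% of genes of the same span and level. Terms share genes and are not independent.

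Most male peaks had a counterpart in yw females. By an overlap of over 50% of the smaller peak, 14648 of 20153 male peaks (72.7%) had a partner in the yw female list, which holds 20540 peaks. The share was 89.5% for 5′ UTR peaks, 72.4% for 3′ UTR peaks and 54.7% for peaks in other exonic sequence. It followed the level of the gene in females, from 17.1% of peaks in genes listed at 0 in both female libraries through 72.3% at 1 to 3 FPKM to 84.4% at 10 to 30 FPKM. It also followed the p-value, from 33.3% of the 1209 peaks with a log10 p above -2 to 89.8% of the 4413 peaks in the class of lowest p. Partners in all 4 other lists, which include those of the mutant males, were found for 10135 peaks (50.3%). This share was 36.3% of 5′ UTR peaks, 63.0% of 3′ UTR peaks and 30.9% of peaks in other exonic sequence. The order of the UTRs was thus the reverse of that for female partners alone. No partner in any other list was found for 1270 peaks (6.30%). Of the 1270 peaks without a partner 711 lay in other exonic sequence, and 458 had a log10 p above -2.

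A peak in the male list and none in the female list was found in 2311 genes, of which 2120 had no male peak that overlapped a female peak of any gene. These genes held 2724 peaks, of which 7.89% lay in the 5′ UTR, 60.9% in the 3′ UTR and 31.2% elsewhere in exons. Their median level was 5.88 FPKM in yw males and 0.0953 FPKM in yw females. The RNA of both sexes was compared with limma on log2(FPKM + 1), and calls needed a Benjamini-Hochberg adjusted p under 0.05 and a log2 fold change of 1 or more in size. Of the 1683 genes with peaks in the male list only that were tested, 1095 (65.1%) were higher in males, 74 lower and 514 passed in neither direction. Over all 12778 genes tested, 22.9% were higher in males and 9.14% lower. Of the 7418 tested genes with peaks in both lists, 954 (12.9%) were higher and 673 lower. Genes below 1 FPKM less often held a peak, so sorting genes by list also sorts them by level in each sex. Of the 2311 genes, 1203 were at 1 FPKM or more in males and below 1 FPKM in females. The excess of higher calls is therefore partly built into the choice of these genes.

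The count of lower genes depended on scaling. With the median log2 level of the libraries made equal, 2673 genes were higher in males and 2271 lower, against 2923 and 1168 as deposited, and the median log2 fold change over all genes was -0.34 instead of 0.03. The count for genes with peaks in the male list only was 1059 higher and 145 lower under that scaling. In whole flies, a difference in the number of cells of a type and a difference in RNA per cell cannot be told apart, and ovary, testis and glands differ between the sexes.

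The genes of this kind with the largest change upward were of the male reproductive tract or of unknown function. CG31740 was at 1509 and 1103 FPKM in yw males, against 2.497 and 2.64 FPKM in yw females (log2 fold change 8.50, SE 0.18, limma adjusted p = 1.51e-05). Its peak of 1.48-fold is listed at the same coordinates for 2 entries and also lies in CG42635. CG3124 was at 562 and 440 FPKM in males, against 0.872 and 0.730 FPKM in females. The male-specific gene msopa was at 583 and 426 FPKM in males, against 1.01 and 0.713 FPKM in females, with 2 overlapping 3′ UTR peaks of up to 2.33-fold. Acp26Aa, a seminal fluid prohormone, was at 418 and 291 FPKM in males, against 0.807 and 0.614 FPKM in females, with 1 peak of 1.91-fold. The peaks of these 4 genes were enriched by at most 2.88-fold. As the genes were picked by the size of their change in these libraries, the separation of the sexes follows from the choice.

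Some genes carried a male peak although their RNA was lower in males. The germ cell gene pgc was at 0.113 and 0.240 FPKM in yw males, against 32.9 and 33.7 FPKM in yw females (log2 fold change -4.87, SE 0.09, limma adjusted p = 1.33e-05), with 1 peak of 2.24-fold. That peak also lies in T3dh and overlaps a female peak assigned to another gene. The antimicrobial peptide gene Mtk was at 16.01 and 12.8 FPKM in males, against 106 and 108 FPKM in females. Its 2 peaks include one of 15.1-fold with 3 blocks from 15401096 to 15415798 on 2R, which reaches beyond the gene and overlaps a female peak of 43.6-fold. The polo kinase regulator mtrm (1.39 and 1.51 FPKM in males, 24.8 and 26.3 FPKM in females) and the oogenesis kinase gwl (2.90 and 2.95 FPKM in males, 28.3 and 27.4 FPKM in females) each had 1 peak, of 1.49-fold and 2.24-fold.

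**Figure D5:**
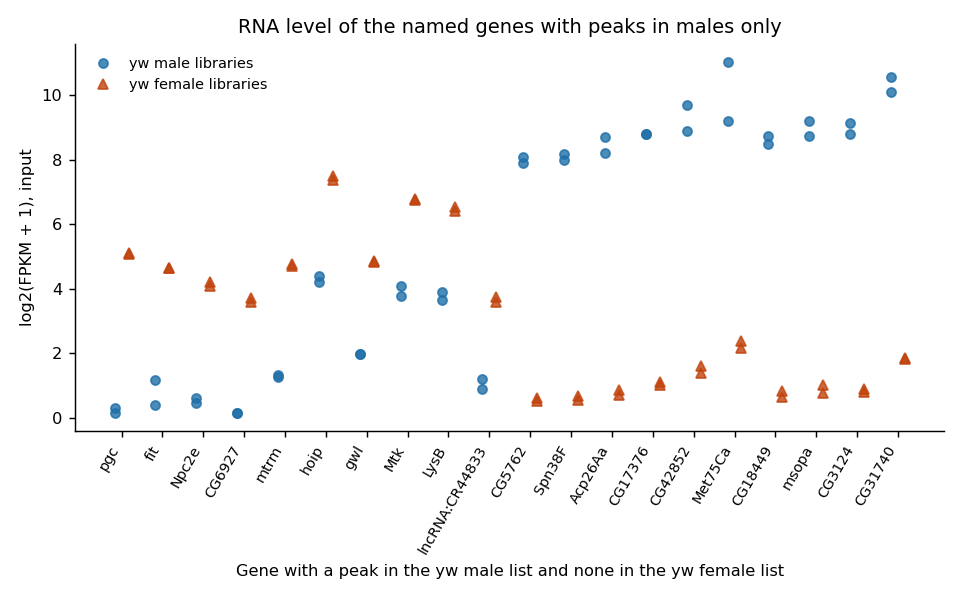
Level of the 20 named genes with peaks in the yw male list and none in the yw female list (x axis, ordered by log2 fold change of males over females), as log2(FPKM + 1) in each input library (y axis). Circles are the 2 yw male libraries and triangles the 2 yw female libraries. The genes were picked by the size of their change in these same libraries, so the separation of the sexes follows from the choice.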

How the data were processed

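Members and gene lists were chosen with earlier results of these data known. Per the labels and the methods of the study, the authors used fastp for trimming and HISAT2 for mapping, called peaks with exomePeak on the IP against the input libraries of a group, annotated them with ChIPseeker and computed FPKM with StringTie. The deposited fold enrichment is a linear ratio of IP over input, the deposited log10 p and log10 FDR are those of the peak caller, and the deposited FPKM values carry no further normalization stated by the authors. No counts or read totals were used, so the depth is unknown. Coordinates are those of the deposited list, and 99.4% of 16166 genes matched by symbol had the start and end of the Release 6 reference.

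Peaks were joined to genes by the gene ID of the list. Classes, shares with Wilson 95% intervals and overlaps were computed with pandas 2.3.3, scipy 1.17.1 and numpy 2.4.6 under Python 3.11.15. The share in the same classes of span and level is the mean, over the members of a group, of the share with a peak among all expressed genes of their class (5 classes of span by 6 classes of level). Sexes were compared with limma 3.58.1 in R 4.3.3 (lmFit, eBayes with trend) on log2(FPKM + 1) of the 4 yw input libraries, for genes with a mean of at least 1 FPKM. On simulated data for this comparison 166 of 200 genes changed by 2 on the log2 scale were called, and 1 of the unchanged among 12778 genes. The changed genes were drawn from those of higher level only, so the recovery at the lowest levels tested is unknown. Overlap rules were tested on made peaks. Named genes are those with most peaks or regions, the highest levels with and without a peak, the highest fold enrichment and lowest p, the largest log2 fold changes among genes with peaks in males only, and, in each gene list, the highest, most covered and most enriched members. Alternatives were peaks at an FDR of at most 0.01 or a fold enrichment of at least 2 or 5, other gene assignments, overlaps, level filters, pseudocounts, scalings and libraries left out. Plots were drawn with matplotlib 3.10.9. Not every gene that the rule names is described, and 1 is not reported here.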

Additional observations from a re-analysis of the deposited data

How the results depend on the processing

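The share of expressed genes with a peak (71.4%) was 68.5% when peaks needed an FDR of 0.01 or less, 63.7% and 23.7% at a fold enrichment of at least 2 and 5, 72.7% with the gene of the annotated transcript, 61.7% with genes above 0 FPKM, 75.3% at a mean of at least 5 FPKM and 57.2% with peaks in the span of 1 gene. Without yw male replicate 1 or 2 it was 71.4% to 71.6%. The share of genes with 2 or more peaks (45.1%) was 43.4%, 37.995% and 23.4% under the FDR and both fold enrichment limits and 37.0% by joined regions. The 5′ UTR share of the peaks was 24.0%, 24.8% and 41.8%, and the median fold enrichment 3.20, 3.72 and 7.14 under the same limits and 2.97 for peaks in the span of 1 gene. The share with a female partner was 73.6%, 64.8% and 53.6% under these limits, 75.7% with any overlap, 53.7% with at least 50% of both peaks and 70.8% on exonic blocks. The rho of level and number of peaks was 0.13, 0.047 and -0.021 under the limits, 0.31 with all genes above 0 FPKM and -0.045 at 5 FPKM and more, and 0.06 to 0.08 without either male replicate. The rho of level and fold enrichment (-0.08) was -0.13 under the FDR limit, -0.17 at a fold enrichment of at least 5 and -0.15 with all genes above 0 FPKM. At a mean of at least 5 FPKM fewer genes were tested, and 1930 were called higher in males, 670 of them with peaks in the male list only. Equal medians gave 2271 lower calls. The cause of the other changes was not tested.

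Leaving out 1 library gave 2911 to 2984 higher calls, 1119 to 1260 lower calls and 1088 to 1096 higher calls among genes with peaks in males only. Where 1 library of a sex is left, its spread is taken from the other sex. The labels number the libraries 1 and 2 in both sexes, but same-numbered libraries did not deviate together (correlation of deviations -0.003 over 12778 genes), so the numbers were not taken as pairs. With a replicate block there were 2946 higher and 1199 lower calls. Joined regions and peaks in the span of 1 gene were chosen after seeing the data. The motif share of the peaks and their position along transcripts were not run, since no genome sequence or transcript model was used here. Weak peaks rest on an unknown depth and on 1 list with no replicate.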

Other observations

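Structural cuticle protein genes had 36 of 50 expressed members with a peak (72.0%, against 64.6% of genes of the same span and level) and peaks in 21 members below 1 FPKM. Cytochrome P450 genes had peaks in 43 of 74 expressed members (58.1%, interval 46.7% to 68.7%, against 69.6%) and digestive proteases and glycosidases in 28 of 42 (66.7%, against 65.7%), with a 5′ UTR peak in 13 and 1 of them. Opsin and phototransduction genes had peaks in 21 of 23 members (91.3%, interval 73.2% to 97.6%, against 82.0%), and ninaA (5.07 and 9.20 FPKM) and Gbeta76C (89.1 and 91.6 FPKM) were without one. Among 11 expressed odorant, gustatory and ionotropic receptor genes 4 had a peak (36.4%, interval 15.2% to 64.6%, against 57.1%), and none was in the 5′ UTR.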
